A study of Mus musculus with 15 samples.

Results

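Livers of newborn mice with low blood glucose and a maternally inherited deletion of a microRNA cluster were set against livers of wild-type littermates. The members were taken by sample title, the 7 libraries of the hypoglycaemic knockout on postnatal day 1 and the 5 libraries of wild-type liver on the same day, which makes 12 of the 15 libraries of the series. The other 3 libraries came from knockout pups whose titles call them normoglycaemic and whose glucose the design text describes as mildly low. The glucose of those pups was 44, 56 and 44 mg/dl, and their libraries entered only the shared estimate of spread and 1 comparison. Every pup was C57BL/6J, was born by natural delivery and was sampled 1 day after birth; the KO pups carried, on the chromosome from the mother, no copy of the cluster named miR-379/miR-410, and the controls carried no deletion. Blood glucose was 51, 72, 50, 55 and 65 mg/dl in wild-type replicates 1 to 5, and 9, 16, 12, 33, 14, 26 and 29 mg/dl in hypoglycaemic KO replicates 1 to 7. The knockout pups had been sorted by glucose, so the deletion and low glucose come together in the 7 livers and cannot be told apart in this comparison. Each library is the whole liver RNA of 1 pup on 1 single-colour Agilent array, and the p-values measure the spread between pups.

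The miR-379/miR-410 cluster is a long row of microRNA genes within Dlk1-Dio3, an imprinted domain, expressed from the maternal chromosome, so that a maternally inherited deletion removes the active copy. MicroRNAs pair with messenger RNAs mainly through the seed, a short stretch near their 5′ end, and lower the stability or translation of their targets. At birth the supply of glucose through the placenta ends, and the newborn liver must release glucose from glycogen and make it from lactate, glycerol and amino acids, under glucagon, glucocorticoids and falling insulin, while oxidation of milk fat supplies the energy.

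RefSeq (GRCm38.p6) lists 38 microRNA genes with 71 mature arms between mmu-miR-379 and mmu-miR-410, over 34736 bases at chr12:109709060-109743795. The seeds of the arms show how the deleted genes are related, since 7 seeds are carried by more than 1 arm. The first and the last gene of the cluster and their seed partners are given here, 5′ to 3′, with the seed (bases 2 to 8) in capitals.
mmu-miR-379-5p: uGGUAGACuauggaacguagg
mmu-miR-1193-5p: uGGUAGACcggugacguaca
mmu-miR-379-3p: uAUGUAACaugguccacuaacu
mmu-miR-411-3p: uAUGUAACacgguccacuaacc
mmu-miR-410-5p: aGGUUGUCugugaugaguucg
mmu-miR-494-5p: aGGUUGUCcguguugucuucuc
mmu-miR-379-5p and mmu-miR-1193-5p share the seed GGUAGAC, mmu-miR-379-3p and mmu-miR-411-3p share AUGUAAC, and mmu-miR-410-5p and mmu-miR-494-5p share GGUUGUC. The arrays read long transcripts and no mature microRNA, so the cluster was followed through its host transcript.

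Mirg, a noncoding RNA from which the microRNAs are cut, checked the labels. Levels here are log2 signal over the array's own 75th percentile, so 0 is the 75th percentile of that array and a step of 1 is a 2-fold step. The KO libraries read from −2.78 to 0.89, with a median of −1.93, and the wild-type libraries from 1.12 to 1.84. The library labelled hypoglycaemic KO replicate 2 gave the highest KO value, 0.89, and the next KO library lay at −0.99. Mirg was 8.28-fold lower in the KO livers (difference −3.05, 2-sided exact permutation p = 0.00253 over 792 splits), and 11-fold lower when the library labelled hypoglycaemic KO replicate 2 was left out, which is given with no test because that library was singled out by its Mirg value. The 2 probes of Mirg, whose 60 bases are printed from the array design to show where on the transcript the reading falls (mm9), lie at chr12:110987569-110987628 and chr12:110979653-110979712.
Mirg probe: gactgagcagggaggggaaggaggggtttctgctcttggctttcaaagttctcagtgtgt
Mirg second probe: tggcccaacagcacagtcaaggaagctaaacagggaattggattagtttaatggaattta
The second probe gave a difference of −3.38 and its KO values also all lay below its wild-type values. Some transcripts that the array names only by an mm9 interval cover the stretch that holds both Mirg probes. The values of chr12:110944403-110988678_F and chr12:110944403-110988678_R are not given here. The one described is chr12:110973190-110987668_F. It read −0.92, −0.61, −1.07, −1.01 and −1.12 in wild-type replicates 1 to 5 and from −2.56 to −1.19, with a median of −2.19, in the KO libraries, with the library labelled hypoglycaemic KO replicate 2 again the highest (difference −1.12, SE 0.20, limma adjusted p = 0.0652). Of the 6 genes of the domain's list that were measured, Mirg included, 2 lay above 0 and 4 below, with a median difference of −0.36. Meg3, a maternally expressed noncoding RNA, differed by 0.13, Dlk1, a paternally expressed growth regulator, by 0.28, and Dio3, the deiodinase that inactivates thyroid hormone, by −0.19 (limma adjusted p = 0.585, 0.352 and 0.836). Rtl1, a paternally expressed gene derived from a retrotransposon, differed by −0.59 and was well above background in 1 wild-type and 1 KO library, and Begain, a neighbour of Dlk1, differed by −0.53 (limma adjusted p = 0.503 and 0.297). Since 1 of the 7 KO libraries lay near wild type in Mirg, though still below every wild-type value, counts that lead an account are given with and without it.

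Over the 15 arrays 57.9% to 76.2% of spots lay well above background, and the number of arrays limits the precision. The arrays lay on 2 slides, with 4 KO and 2 wild-type libraries of the comparison on slide 1 and 3 and 3 on slide 2. The 9 hepatocyte markers were abundant in each library, with a mean level of 7.48 to 7.89 in wild-type and 7.65 to 8.12 in KO livers, so hepatocyte transcripts were present in every library, as the labelled tissue requires. Transcripts of the exocrine pancreas were high in 2 libraries of the comparison, wild-type replicate 2 (mean level of 24 markers 1.23) and hypoglycaemic KO replicate 3 (1.32), and 0 genes were called without those 2 and 1 library of the other KO group. Ddx3y, a Y-linked gene, was high in 1 of 5 wild-type and 2 of 7 KO libraries, one of which is the library labelled hypoglycaemic KO replicate 2, and the part of sex in the differences was not tested.

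In all, 5 transcripts fell in the hypoglycaemic KO livers and 0 rose, at a limma adjusted p under 0.05 over 27599 genes. That is 0.0181% of the genes tested. The 5 were the developmental transcription factor Tbx3, the killer cell protease Gzmb, and 3 transcripts that are named only by a clone, a gene model or an Ensembl entry, A130072N09Rik, Gm10509 and ENSMUST00000103291. At an unadjusted p under 0.05, 2730 genes lay higher (9.89%) and 2460 lower (8.91%). At an adjusted p under 0.10, a wider list that is described but not called, 218 genes lay higher (0.79%) and 316 lower (1.14%). This wider list was not stable. It held 1 higher and 6 lower genes in a fit of only the 12 libraries compared. It held 0 and 1 without wild-type replicate 3, and 1501 and 1216 without wild-type replicate 1. A gene is said below not to overlap where all 7 KO values lay on 1 side of all 5 wild-type values, which held for 202 genes on the higher side (0.754% of 26797 with no missing value) and 193 on the lower side (0.72%). The count of called genes rested on single libraries. It was 144 without the library labelled hypoglycaemic KO replicate 2, 519 without hypoglycaemic KO replicate 4 and 749 without wild-type replicate 1, it was 0 without hypoglycaemic KO replicate 1 or 7 or wild-type replicate 3, 4 or 5, and it was 2 without hypoglycaemic KO replicate 3, 5 or 6 and 1 without wild-type replicate 2.

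**Figure D1:**
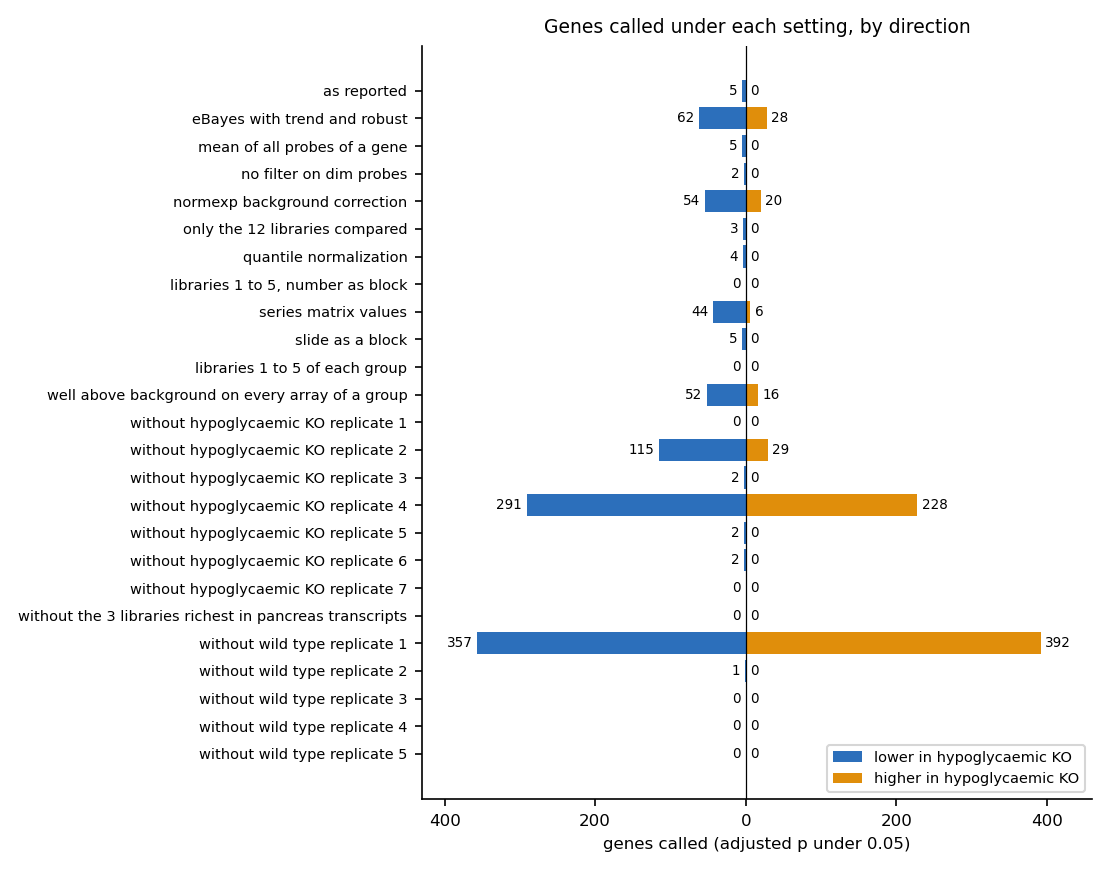
Number of genes called at a limma adjusted p under 0.05 (horizontal axis) for settings of the processing and for each library left out (vertical axis; the fits within 1 slide, which called 0, are not drawn), split into genes higher and lower in hypoglycaemic KO livers. With all libraries 5 genes were called, all lower, and leaving out wild-type replicate 1 gave 749.

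The transcript A130072N09Rik shared the smallest adjusted p with Tbx3. A130072N09Rik read −1.17, −0.27, −1.10, −0.60 and −0.29 in wild-type replicates 1 to 5 and from −3.21 to −1.82, with a median of −2.80, in the 7 KO libraries. Every KO value lay below every wild-type value, with hypoglycaemic KO replicate 4 the highest of the 7, and the fall was 4.00-fold (difference −2.0, SE 0.24, limma adjusted p = 0.0164). Tbx3 read 1.93, 1.49, 1.91, 1.87 and 1.65 in wild-type replicates 1 to 5 and from 0.40 to 1.16, with a median of 0.71, in the 7 KO libraries. Tbx3, a T-box repressor that marks liver progenitor cells and later the hepatocytes around the central vein, fell 2.13-fold with no overlap (difference −1.09, SE 0.13, limma adjusted p = 0.0164), and hypoglycaemic KO replicate 4 again lay nearest to wild type. Gzmb read 0.54, 0.70, 0.66, 0.58 and 0.50 in wild-type replicates 1 to 5 and from −0.96 to −0.16, with a median of −0.67, in the 7 KO libraries. The groups of Gzmb, which encodes granzyme B, a protease that natural killer cells and cytotoxic T cells release into their targets, did not overlap either, and the fall was 2.17-fold (difference −1.12, SE 0.16, limma adjusted p = 0.0479). ENSMUST00000103291 read −0.01, −0.05, −0.31, −0.18 and −0.39 in wild-type replicates 1 to 5 and from −1.33 to −0.58, with a median of −1.18, in the 7 KO libraries. Its KO values also all lay below wild type, with the library labelled hypoglycaemic KO replicate 2 the nearest (difference −0.88, SE 0.13, limma adjusted p = 0.0479). Gm10509 read −2.60, −2.50, −2.39, −2.30 and −2.39 in wild-type replicates 1 to 5 and from −3.01 to −2.86, with a median of −2.91, in the 7 KO libraries. This fall was the smallest of the 5, 1.40-fold (difference −0.49, SE 0.07, limma adjusted p = 0.0472), and a second probe of Gm10509 differed by 0.16 with overlapping groups, so it rests on 1 probe.

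The 60-base probes of the 3 called transcripts that the reference used here could not name further are given from the array design. Their sequences were not searched against known genes, so any of the 3 may belong to a described gene. In mm9 they lie at chr16:45984049-45984108 on the minus strand (A130072N09Rik), chr6:41489287-41489346 (ENSMUST00000103291) and chr17:21829089-21829148 on the plus strand (Gm10509), and the second Gm10509 probe lies on the opposite strand at chr17:21827292-21827351.
A130072N09Rik probe: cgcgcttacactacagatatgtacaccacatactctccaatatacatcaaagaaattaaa
ENSMUST00000103291 probe: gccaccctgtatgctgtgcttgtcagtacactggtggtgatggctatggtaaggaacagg
Gm10509 probe: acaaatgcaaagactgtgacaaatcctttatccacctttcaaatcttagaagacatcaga
Gm10509 second probe: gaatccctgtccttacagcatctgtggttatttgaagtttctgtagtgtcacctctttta

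**Figure D2:**
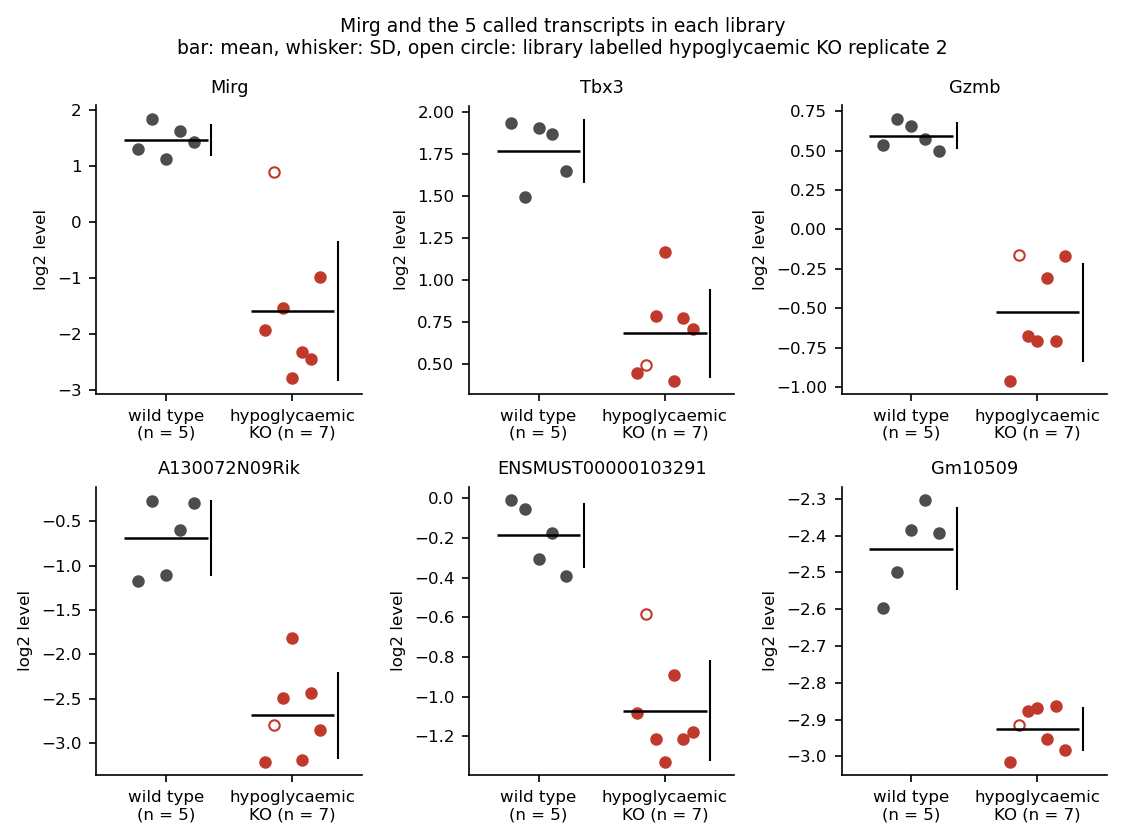
Level (log2 signal over the array's 75th percentile, vertical axis) of Mirg and of the 5 called transcripts in each wild-type and hypoglycaemic KO library, 1 panel per transcript, with bars for group means and whiskers for 1 SD. The open circle is the library labelled hypoglycaemic KO replicate 2. It is the highest KO point for Mirg, and in all 6 panels every KO point lies below every wild-type point.

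Genes of glycogen, lipid and stress handling stood just short of the call. Ppp1r3c, a scaffold that brings protein phosphatase to glycogen and favours its synthesis, read 0.00, 0.88, 0.40, 0.46 and 1.44 in wild-type replicates 1 to 5 and from −2.10 to −0.06, with a median of −1.54, in the KO libraries. The groups did not overlap, although hypoglycaemic KO replicate 4 lay just below the lowest wild-type value (difference −2.0, SE 0.32, limma adjusted p = 0.0559). Gpam, which makes the first step of glycerolipid synthesis in mitochondria, lay on the higher side with no overlap, from −0.84 to 0.06 in wild-type and from 0.35 to 0.76 in KO livers (difference 0.83, SE 0.14, limma adjusted p = 0.0596). Ddit4, a stress-induced inhibitor of mTORC1 that glucocorticoids and hypoxia also raise, read 3.99, 2.71, 3.43, 2.90 and 3.28 in wild-type replicates 1 to 5 and from 4.33 to 7.04, with a median of 6.16, in the KO libraries. The lowest KO values of Ddit4 came from hypoglycaemic KO replicates 4 and 6, 4.33 and 4.52, which still lay above the highest wild-type value, and the difference was the largest of the 12 named on the higher side (difference 2.58, SE 0.43, limma adjusted p = 0.0596). Txnip, an inhibitor of glucose uptake and of thioredoxin, read 4.71, 4.51, 4.31, 3.74 and 3.26 in wild-type replicates 1 to 5 and from 4.71 to 6.43, with a median of 5.71, in the KO libraries. The groups did not overlap, but the lowest KO value and the highest wild-type value were both 4.71 after rounding (difference 1.5, SE 0.30, limma adjusted p = 0.0733), and a second probe differed by 1.71. Depp1, an autophagy regulator induced by FOXO factors in fasting, read 4.81, 4.47, 4.31, 4.09 and 3.87 in wild-type and from 5.10 to 6.52, with a median of 5.54, in KO libraries, with hypoglycaemic KO replicate 5 far above the other KO libraries (difference 1.26, SE 0.25, limma adjusted p = 0.0704).

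Genes with large differences on the lower side included genes of hepatocyte metabolism and of killer lymphocytes. Cyp1a2, a drug- and oestrogen-metabolising cytochrome of the hepatocytes around the central vein, read −1.10, 0.28, −1.67, 0.44 and 0.46 in wild-type replicates 1 to 5 and from −5.43 to −1.86, with a median of −3.34, in the KO libraries. The KO library nearest to wild type was the one labelled hypoglycaemic KO replicate 2, at −1.86, and wild-type replicate 3 was the lowest of its group at −1.67 (difference −3.14, SE 0.60, limma adjusted p = 0.0685). Slc22a7, an organic anion carrier of the hepatocyte surface, read −4.67, −1.31, −3.67, −3.43 and −3.59 in wild-type replicates 1 to 5 and from −8.12 to −5.26, with a median of −5.58, in KO libraries, of which 1 of 7 lay well above background (difference −3.04, SE 0.64, limma adjusted p = 0.0874). Lect2, a secreted hepatokine and a target of beta-catenin, read 3.72, 5.74, 4.25, 3.88 and 4.65 in wild-type replicates 1 to 5 and from 0.76 to 3.53, with a median of 2.88, in KO libraries, without overlap (difference −1.95, SE 0.49, limma adjusted p = 0.0936). Xcl1 and Ifng, a chemokine and the interferon of killer lymphocytes, were dim and differed by −2.64 and −2.16, with 1 of 7 and 3 of 7 KO libraries well above background (limma adjusted p = 0.0685 and 0.0596). Apol9b and Apol7c, members of the apolipoprotein L family, differed by −1.59 and −2.03, the latter with 3 of 7 KO libraries well above background. Phlda2, an imprinted brake on placental growth, differed by −3.02 (limma adjusted p = 0.118), with 2 of 7 KO libraries well above background. Its groups overlapped, with hypoglycaemic KO replicate 4 at −2.42 inside the wild-type range of −4.36 to −1.48. Flrt2, an adhesion protein, differed by −1.64 without overlap (limma adjusted p = 0.124), with 5 of 7 KO libraries well above background. A second probe of Flrt2 differed by −0.22 with overlapping groups, so its difference rests on 1 probe. Tlr11, a receptor for microbial profilin, differed by −1.47 and Pllp, a myelin and epithelial membrane protein, by −1.77. In these dim genes the KO level is not well resolved, so the size of the difference is the less certain part.

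Among the 12 genes named on the higher side, those next to Ddit4 in size were Serpina3i (1.93), a serine protease inhibitor, and Chac1 (1.56), which breaks down glutathione and is a target of the amino acid stress factor ATF4. Serpina3i read −2.13, −2.09, −1.98, −1.95 and −2.30 in wild-type replicates 1 to 5 and from −1.93 to 0.62, with a median of 0.50, in the KO libraries. The KO livers lay apart, with replicates 1, 3, 4, 5 and 6, from −0.21 to 0.62, and replicates 2 and 7 at −1.93 and −1.22, and a second Serpina3i probe differed by 0.20. Chac1 read −1.99, −2.44, −2.25, −2.67 and −2.66 in wild-type replicates 1 to 5 and from −1.95 to −0.06, with a median of −0.58, in the KO libraries. The 2 KO libraries nearest to wild type were replicates 2 and 4, at −1.95 and −1.87, just above the highest wild-type value of −1.99 (difference 1.56, SE 0.32, limma adjusted p = 0.0874). Lrrc24 and Tmprss2, a leucine-rich repeat membrane protein and a membrane serine protease, differed by 1.21 and 1.02, and Stx3 and Ifrd1, a membrane fusion protein and a transcriptional coregulator, both by 0.88. For Lrrc24, 2 of 5 wild-type libraries were well above background, and its difference ran from 0.34 to 1.39 over the 26 other settings of the processing. Genes of this side had a limma adjusted p of 0.0596 to 0.124.

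**Figure D3:**
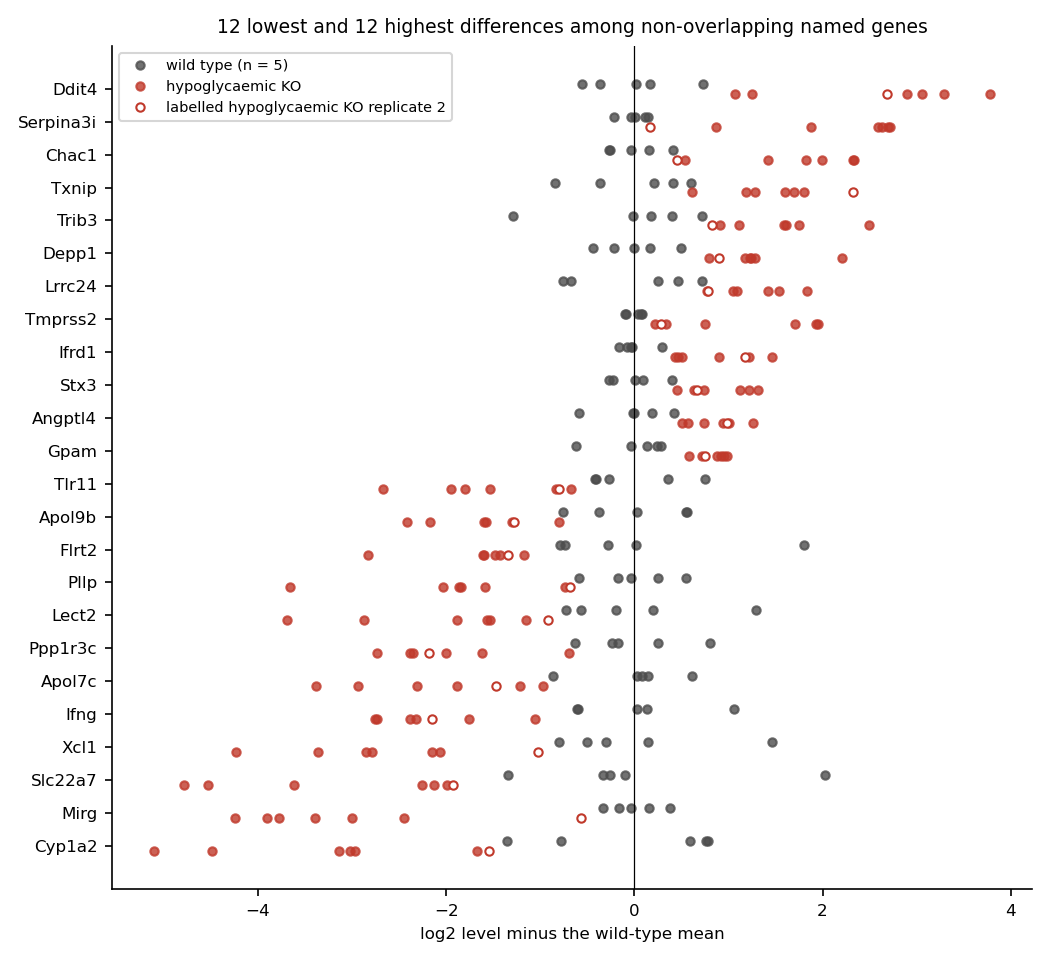
Level of the 12 genes with the largest difference in each direction among genes that carry a gene symbol (clone and gene-model names left out), were well above background on every array of at least 1 of the 2 groups and did not overlap, plotted per library as log2 level minus the wild-type mean (horizontal axis, 0 is the wild-type mean). Open circles are the library labelled hypoglycaemic KO replicate 2. Ddit4 differed by 2.58 and Cyp1a2 by −3.14 in the means.

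Targets of the fasting hormones lay mostly on the higher side, and none of them was called. Of 20 glucocorticoid receptor targets measured, 19 lay above 0 with a median difference of 0.94, against 52.8% of all genes above 0 and a median of 0.02. At an adjusted p under 0.10, 7 of the 20 lay higher (0.79% of all genes did) and 2 did not overlap, Ddit4 and Angptl4 (0.754% of all genes did). Angptl4, a secreted inhibitor of lipoprotein lipase, differed by 0.86 (limma adjusted p = 0.0965). Pdk4, the kinase that shuts pyruvate out of oxidation, read 3.01, 1.87, 2.42, 2.54 and 2.11 in wild-type replicates 1 to 5 and from 2.75 to 4.50, with a median of 3.94, in the KO libraries. Its lowest KO library, replicate 4, lay below wild-type replicate 1, so the groups overlapped (difference 1.33, SE 0.30, limma adjusted p = 0.0874). Sgk1 and Tsc22d3, an ion transport kinase and the leucine zipper GILZ, both classic glucocorticoid targets, differed by 1.40 and 1.09. The mean level of the list was 3.22 to 4.11 in wild-type and 3.73 to 5.12 in KO livers. Of 17 glucagon and cAMP targets 16 lay above 0 with a median of 0.37, but 0 had an adjusted p under 0.10. Of 18 FOXO1 targets, genes that insulin holds down, 14 lay above 0 with a median of 0.39. Txnip and Pdk4 had an adjusted p under 0.10 (0.79% of all genes did).

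**Figure D4:**
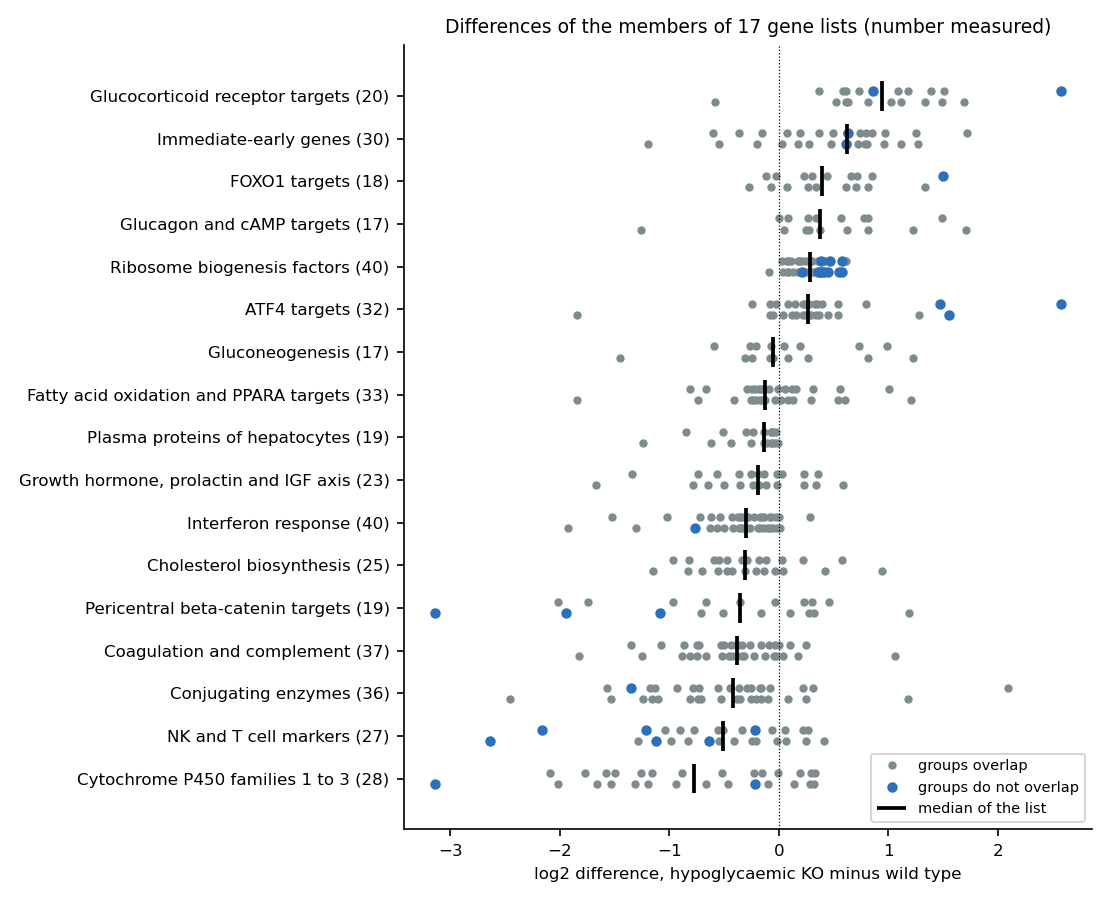
Log2 difference of hypoglycaemic KO minus wild type (horizontal axis) for each measured member of 17 gene lists (vertical axis). The list of ribosome biogenesis factors was assembled after the values were seen. Blue points are members whose 7 KO and 5 wild-type values did not overlap, grey points the others, and the bar marks the list median, which was 0.94 for glucocorticoid receptor targets and −0.77 for the cytochrome P450 families.

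ATF4 targets, genes of amino acid supply and stress that the integrated stress response turns on, lay higher in most members. Of 32 members 26 lay above 0 with a median of 0.26, 3 did not overlap (0.754% of all genes did) and 3 had an adjusted p under 0.10 (0.79% of all genes did). The mean level of the list did not overlap between the groups, at 1.98 to 2.10 in wild-type and 2.14 to 2.73 in KO livers. Trib3, a pseudokinase that restrains insulin signalling, read 2.32, 0.31, 2.0, 1.78 and 1.59 in wild-type replicates 1 to 5 and from 2.42 to 4.10, with a median of 3.19, in the KO libraries, all above wild type (difference 1.47, SE 0.34, limma adjusted p = 0.0874). Chac1, described above, also did not overlap. The upstream sequence of Chac1 is printed, since the promoters of the list were searched for the ATF4 element. It is the 250 bases before the start of transcription at chr2:119350992-119351241 (RefSeq, GRCm38.p6, plus strand), with the match in capitals, 193 bases before the start.
Chac1 promoter: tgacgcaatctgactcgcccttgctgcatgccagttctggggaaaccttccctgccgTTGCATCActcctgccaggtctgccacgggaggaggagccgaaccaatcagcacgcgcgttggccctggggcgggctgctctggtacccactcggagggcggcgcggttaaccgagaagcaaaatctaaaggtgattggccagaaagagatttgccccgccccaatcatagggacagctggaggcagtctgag
The motif TGATGNAA was searched on both strands, and TTGCATCA is its reverse complement. It was found in the printed length of 9 of 27 ATF4 targets with a promoter in the table (33.3%) and in 3.45% of all 32851 promoters of that length. Of 30 immediate-early genes, which respond within minutes to growth and stress signals, 24 lay above 0 with a median of 0.62. Klf6 (0.63) and Myc (0.62), both transcription factors, did not overlap (0.754% of all genes did). Klf6, Gadd45b (1.27), a stress sensor, and Ccn2 (1.25), a matrix signalling protein, had an adjusted p under 0.10 (0.79% of all genes did). The mean level of that list reached 1.14 in KO and 0.03 in wild-type livers, and the KO range began at 0.02.

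Txnip carried matches to a glucocorticoid receptor element and to a FOXO site in its upstream sequence, and it is printed because both matches stand in 1 window. The 250 bases lie at chr3:96557707-96557956 (RefSeq, GRCm38.p6, plus strand), with the element GCACACCGTGTCC 172 bases and the FOXO match GTAAACA 121 bases before the start, in capitals.
Txnip promoter: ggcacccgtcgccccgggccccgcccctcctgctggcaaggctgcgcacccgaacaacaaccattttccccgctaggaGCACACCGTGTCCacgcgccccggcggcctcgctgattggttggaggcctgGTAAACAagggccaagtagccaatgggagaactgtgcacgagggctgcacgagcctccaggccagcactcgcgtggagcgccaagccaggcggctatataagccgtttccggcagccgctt
The glucocorticoid receptor element, GNACA, then 3 bases of any kind, then TGTNC, was searched on both strands and found in 2 of 17 glucocorticoid receptor targets (11.8%) against 0.387% of all promoters, and TGTTTAC, of which GTAAACA is the reverse complement, in 1 of 15 FOXO1 targets (6.67%) against 3.17%. Txnip belongs to the FOXO1 list and not to the glucocorticoid receptor list, so it is not 1 of those 2 targets. The glucocorticoid receptor element was found in 1 of 15 FOXO1 targets (6.67%). A match only says that the letters are there.

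The enzymes of glucose production themselves lay close to wild type in most members. Of 17 gluconeogenesis genes 8 lay above 0 with a median of −0.05, which changed sign within slide 1, and Gpt2, the mitochondrial alanine aminotransferase, was the 1 member under adjusted p 0.10 (0.99, 0.0936). G6pc, the glucose-6-phosphatase subunit that releases free glucose, read 7.45, 6.26, 7.35, 7.43 and 7.16 in wild-type replicates 1 to 5 and from 7.34 to 8.30, with a median of 8.10, in the KO libraries. The groups overlapped and the difference was not past the threshold (difference 0.81, SE 0.29, limma adjusted p = 0.16). Pck1, the cytosolic phosphoenolpyruvate carboxykinase, read 7.27 to 7.98 in wild-type and 7.43 to 8.30 in KO livers (difference 0.27, SE 0.22, limma adjusted p = 0.539). Of 17 genes of glycogen synthesis and breakdown 7 lay above 0. On the lower side Ppp1r3c and Phka2, the regulatory subunit of phosphorylase kinase (−0.32), did not overlap (0.72% of all genes did). Gyg, the primer of glycogen synthesis, differed by 0.40 with overlapping groups (limma adjusted p = 0.0874). Fat oxidation genes lay on both sides, with 13 of 33 above 0 and a median of −0.13, and Pex11a, a peroxisome division factor, differed by 0.56. Cpt1a, the gate of fatty acid entry into mitochondria, differed by −0.03 (adjusted p = 0.940) and its second probe by 0.03. Of 7 ketone body genes 6 lay below 0 with a median of −0.29. Fgf21, a fasting hormone of liver, differed by −1.85 with 4 of 7 KO libraries above background (adjusted p = 0.247).

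Lipid genes lay on both sides. Of 25 cholesterol synthesis genes 19 lay below 0 with a median of −0.31. Under adjusted p 0.10, Lss, which closes the sterol ring, and Hsd17b7, a later reductase, lay higher (0.94 and 0.58; 0.79% of all genes did). Acat2, which makes acetoacetyl-CoA, lay lower under that threshold (−1.14, 1.14% of all genes did). Of 28 lipoprotein and lipase genes 22 lay below 0 with a median of −0.23. Angptl8, a secreted regulator of lipoprotein lipase, differed by −1.34, and Pnpla2, the main triglyceride lipase inside cells, by 1.45. The highest KO value of Angptl8, 3.17 in hypoglycaemic KO replicate 3, lay above the lowest wild-type value, 2.99.

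The growth hormone and IGF axis lay lower in most members. Of 23 genes 17 lay below 0 with a median of −0.19, and Igf1, Irs1, Prlr and Ghr had an adjusted p under 0.10 (1.14% of all genes did) while 0 of 23 separated the groups without overlap (0.72% of all genes did). Igf1, the growth factor through which growth hormone acts, read 1.12, 2.59, 2.07, 1.73 and 2.11 in wild-type replicates 1 to 5 and from 0.02 to 1.66, with a median of 0.35, in the KO libraries, where the library labelled hypoglycaemic KO replicate 2 was the highest (difference −1.34, SE 0.29, limma adjusted p = 0.0874). Prlr, the prolactin receptor, differed by −1.67 and Ghr, the growth hormone receptor, by −0.65, and Irs1, which relays insulin and IGF1 signals, by −0.50. Thrb, a thyroid hormone receptor, differed by −0.59 and did not overlap, while the thyroid response list as a whole lay on both sides (7 above and 7 below 0, median 0.01). Of 16 imprinted growth genes outside the domain 11 lay below 0 with a median of −0.18 and 0 had an adjusted p under 0.10.

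Most genes of the pericentral hepatocyte and of drug metabolism lay lower. Of 19 beta-catenin targets around the central vein 12 lay below 0 with a median of −0.35, and 5 had an adjusted p under 0.10 (Tbx3, Cyp1a2, Rnf43, Lect2 and Cyp2e1) against 1.14% of all genes. The mean level of the list was 0.64 to 1.28 in wild-type and −0.13 to 0.63 in KO livers, so the ranges lay side by side without overlap. Rnf43, an inhibitor of Wnt receptors, differed by −0.71. Cyp2e1, a pericentral cytochrome, read 8.43, 7.84, 7.60, 8.06 and 7.74 in wild-type replicates 1 to 5 and from 4.54 to 8.27, with a median of 6.05, in the KO libraries. The library labelled hypoglycaemic KO replicate 2 read 8.27, inside the wild-type range, and the difference was −2.01 (limma adjusted p = 0.0972), or −2.40 without it, where Cyp2e1 was called. Of 28 cytochrome P450 genes of families 1 to 3, 22 lay below 0 with a median of −0.77. On the lower side Cyp1a2 and Cyp2d10 (−0.22) did not overlap (0.72% of all genes did). Of 36 conjugating enzymes, which attach sugars, sulphate or glutathione to drugs and hormones, 30 lay below 0 with a median of −0.41. Sult1c2, a sulphotransferase, differed by −2.45 and Gsta2, a glutathione transferase, by −1.53 with 1 KO value missing.

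Most genes of secreted liver products also lay lower. Of 37 coagulation and complement genes 32 lay below 0 with a median of −0.38, 6 had an adjusted p under 0.10 (1.14% of all genes did) and 0 separated the groups without overlap. F7, the factor that starts the extrinsic pathway, read 2.04, 2.48, 2.17, 2.51 and 2.32 in wild-type replicates 1 to 5 and from 0.96 to 2.26, with a median of 1.35, in the KO libraries, where the library labelled hypoglycaemic KO replicate 2 (2.26) lay inside the wild-type range (difference −0.87, SE 0.18, limma adjusted p = 0.0874). Masp1, a complement protease of the lectin pathway, differed by −1.25. All 19 plasma proteins of the hepatocyte lay below 0, with a median of −0.13, but Alb differed by only −0.06 and Afp, the fetal albumin, by −0.07, and neither kept its sign in every setting. Of 25 bile acid genes 17 lay below 0 with a median of −0.13. Akr1d1, which reduces bile acid precursors, differed by −1.03 and Nr0b2, the bile acid feedback repressor SHP, by −1.26.

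Genes of ammonia detoxification lay on both sides. Of 12 urea cycle and ammonia genes 9 lay above 0 with a median of 0.39, and Otc, the enzyme that makes citrulline, was the 1 member under adjusted p 0.10, on the lower side. Otc read 2.27, 3.55, 2.28, 2.25 and 2.94 in wild-type replicates 1 to 5 and from −0.56 to 2.50, with a median of 0.92, in the KO libraries (difference −1.84, SE 0.45, limma adjusted p = 0.0896), with the library labelled hypoglycaemic KO replicate 2 the highest KO value. Cps1, which makes the carbamoyl phosphate that Otc uses, differed by 0.75 (adjusted p = 0.318), and Tat, which opens tyrosine breakdown, by 1.5 (adjusted p = 0.193). Haao, an enzyme of tryptophan breakdown, differed by −0.75 without overlap. The median of the urea cycle list was 0.14 without the 3 pancreas-rich libraries.

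Most killer lymphocyte markers lay lower, and in bulk liver fewer such cells and less RNA per cell cannot be told apart. Of 27 natural killer and T cell markers 21 lay below 0 with a median of −0.51, 8 had an adjusted p under 0.10 (1.14% of all genes did) and 6 did not overlap (0.72% of all genes did). The mean level of the markers was −1.32 to −1.05 in wild-type and −2.10 to −1.40 in KO livers, and the library labelled hypoglycaemic KO replicate 2 was the highest KO library. Gzma, the granzyme that cleaves at basic residues, read 4.63, 4.68, 4.28, 4.38 and 4.21 in wild-type replicates 1 to 5 and from 2.68 to 4.06, with a median of 3.22, in the KO libraries, with no overlap (difference −1.21, SE 0.21, limma adjusted p = 0.0652). Klrd1, the CD94 receptor chain, differed by −0.98 and Klrc1, its NKG2A partner, by −1.13. Klrc1 comes from a list of killer cell lectin-like receptors assembled after the values were seen, of which 13 were measured, 4 above and 9 below 0, with a median of −0.21, 3 under adjusted p 0.10 and 1 without overlap. Tbx21, the T-bet factor of type 1 lymphocytes, differed by −1.04, and Il2rb, a shared receptor of interleukins 2 and 15, by −0.64. Cd3g, a chain of the T cell receptor complex, differed by −1.29. Other markers lay near wild type, such as Cd3e, a further chain of that complex (−0.06), Prf1, the pore-forming perforin (0.06), and Thy1, a T cell surface protein (−0.02). Outside the lists, in genes picked after the values were seen, Cxcr3, Cd7 and Ctsw, genes of lymphocytes, lay below wild type in all 7 libraries. Their differences were −0.87, −0.87 and −0.61. Tnf, a cytokine that is not particular to lymphocytes, did so too (−1.18). Of all genes 0.72% lay lower in this way, and these were picked from among them. Irf1, an interferon-induced transcription factor, read 2.77, 3.26, 3.21, 3.08 and 3.29 in wild-type replicates 1 to 5 and from 2.08 to 2.76, with a median of 2.35, in KO livers (difference −0.76, SE 0.13, limma adjusted p = 0.0596), and 37 of 40 interferon response genes lay below 0 with a median of −0.30. Iigp1, an interferon-induced GTPase, differed by −1.92.

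Other cell types lay closer to wild type by list median. The 13 B-lineage markers had a median of −0.07, the 23 erythroid markers −0.04, the 15 Kupffer cell and macrophage markers −0.10, the 19 granulocyte markers 0.20 and the 21 endothelial markers 0.15. Small as the medians were, 19 of 21 endothelial and 15 of 19 granulocyte markers lay above 0. Below 0 lay 10 of 13 B-lineage, 15 of 23 erythroid and 9 of 15 Kupffer cell and macrophage markers. Timd4, a phagocytic receptor of resident Kupffer cells, differed by −0.79 and Pecam1, the endothelial adhesion protein, by 0.29, the latter without overlap. Lrat, the stellate cell enzyme that stores vitamin A, differed by −1.16, and Sox9, a bile duct factor, by −0.59, both with overlapping groups and an adjusted p under 0.10. The hepatocyte markers themselves had a median of −0.07, which turned positive within slide 1, and the medians of the B-lineage and erythroid markers also changed sign in 1 setting each.

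**Figure D5:**
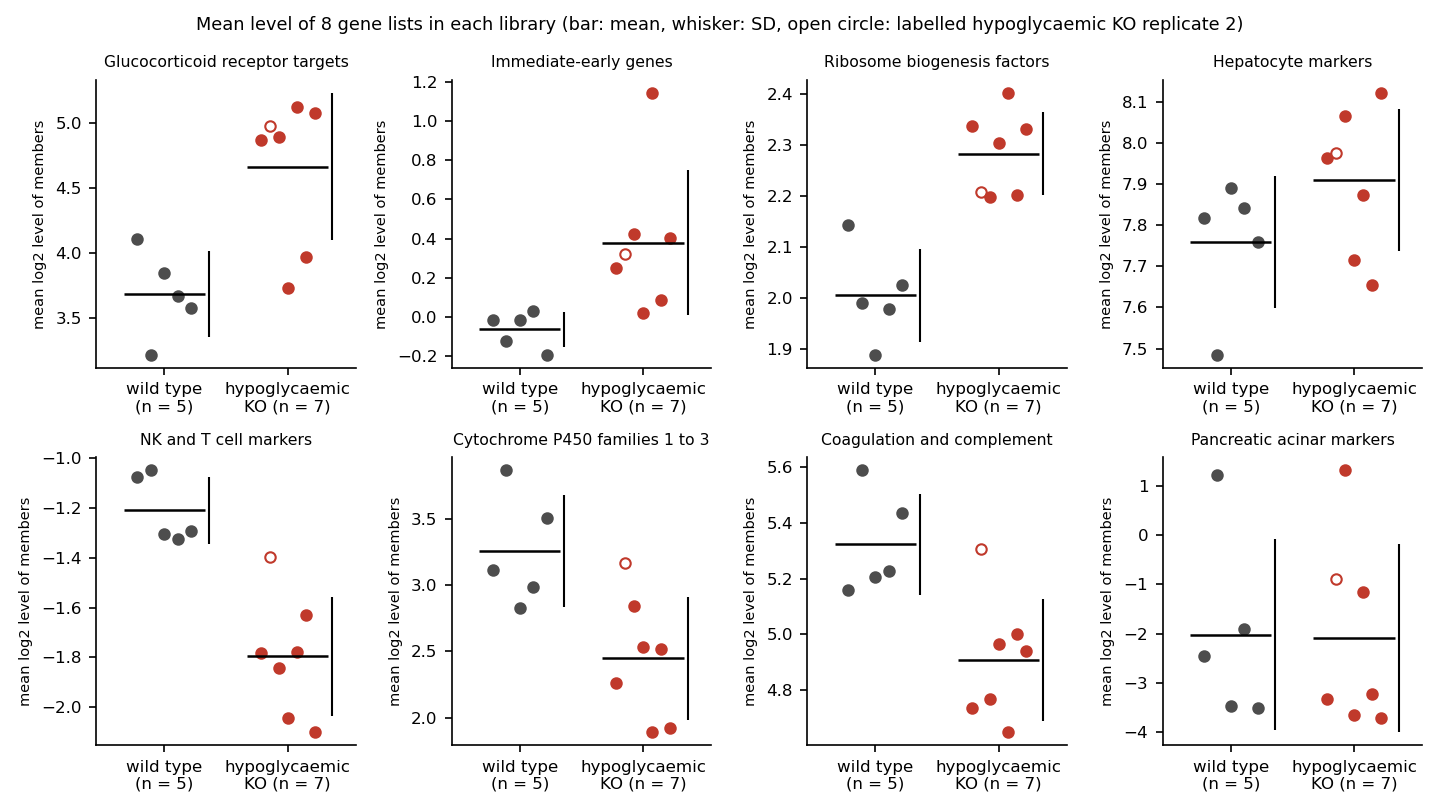
Mean level (log2 signal over the array's 75th percentile, vertical axis) of 8 gene lists in each wild-type and hypoglycaemic KO library, 1 panel per list, with bars for group means and whiskers for 1 SD. Open circles are the library labelled hypoglycaemic KO replicate 2. Ribosome biogenesis factors, a list assembled after the values were seen, ranged from 1.89 to 2.14 in wild-type and 2.20 to 2.40 in KO livers. Natural killer and T cell markers ranged from −1.32 to −1.05 and −2.10 to −1.40.

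Small but even differences ran through the factors that build ribosomes, a list assembled after the values were seen. Of 40 ribosome biogenesis factors 39 lay above 0 with a median of 0.28. Of the 40, 11 had an adjusted p under 0.10 (0.79% of all genes did) and 11 did not overlap (0.754% of all genes did). Since the list was assembled with the values known, these counts are no test of it. The list's mean level ranged without overlap from 1.89 to 2.14 in wild-type and from 2.20 to 2.40 in KO livers. Utp20, a scaffold of the small subunit processome, read −0.22, −0.38, −0.38, −0.49 and −0.40 in wild-type replicates 1 to 5 and from −0.13 to 0.13, with a median of −0.06, in KO libraries (difference 0.36, SE 0.07, limma adjusted p = 0.0685). Gnl3, the nucleolar GTPase nucleostemin, differed by 0.58, Rrp12, an export factor of preribosomes, by 0.55, and Nop14, a small subunit factor, by 0.41, each without overlap. The tight junction list, also assembled after the values were seen, lay the other way, with 13 of 19 below 0 and a median of −0.20. Cldn3, a claudin of the bile canaliculus, read 3.27, 3.86, 4.18, 3.95 and 3.69 in wild-type replicates 1 to 5 and from 1.57 to 3.12, with a median of 2.61, in the KO libraries, with no overlap (difference −1.36, SE 0.25, limma adjusted p = 0.0685), and Cldn1 and Cldn2, further claudins of liver, differed by −0.87 and −1.35. Of 33 cell cycle genes 31 lay below 0 with a median of −0.23 and 0 had an adjusted p under 0.10, and of 24 endoplasmic reticulum genes 18 lay below 0 with a median of −0.16, including Xbp1 (−0.37), a factor of the unfolded protein response. Of 21 autophagy genes 18 lay above 0 with a median of 0.16, none of them under adjusted p 0.10; Gabarapl1, a starvation-induced membrane tag of autophagosomes, differed by 0.86.

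Without the library labelled hypoglycaemic KO replicate 2, 144 genes were called (0.522% of those tested), 29 higher and 115 lower. The 5 genes called with it were all among them. Of the lists, 7 coagulation and complement genes fell (Hc, Proc, C1ra, Serpind1, Masp1, C1s1 and F7) and 7 natural killer and T cell markers (Xcl1, Gzmb, Tbx21, Ifng, Cd3g, Gzma and Klrd1), against 0.417% of all genes. Mirg was also among them, but the library was left out for its Mirg value, so this is no test of Mirg. That library also had the highest KO mean level for coagulation and complement (5.31) and for natural killer and T cell markers (−1.40). Leaving it out by itself lowered the KO means of these lists, so their counts of called members are no separate support for a fall. Acsm5, a mitochondrial acyl-CoA synthetase, differed by −3.83 and Cyp1a2 by −3.40. Fgf1, a fibroblast growth factor, fell by 2.36, Hsd17b6, a steroid dehydrogenase, by 2.34, Otc by 2.12 and Prlr by 1.99. Igf1 fell by 1.52 and Nr0b2 by 1.58. Ddit4 rose by 2.56, Serpina3i by 2.23, Chac1 by 1.74, Depp1 by 1.32 and Slc29a2, a nucleoside transporter, by 1.09, and Gpam and Gyg rose by 0.84 and 0.45. Utp20 was the ribosome factor of the list that rose, by 0.37. The median difference without that library was 0.93 for glucocorticoid receptor targets, 0.33 for ATF4 targets, −0.38 for pericentral genes, −0.84 for the cytochrome P450 families, −0.45 for coagulation and complement, −0.46 for natural killer and T cell markers and 0.30 for ribosome biogenesis factors. In this fit all 6 remaining KO libraries lay on 1 side of all 5 wild-type libraries for 364 genes on the higher and 400 on the lower side.

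Against the 3 KO livers titled normoglycaemic, 3 of the named genes differed at a limma adjusted p under 0.05, with the hypoglycaemic livers shared by both comparisons. A130072N09Rik differed by −2.06 in the hypoglycaemic KO livers (adjusted p = 0.0329), Ppp1r3c by −2.48 (0.0443), and Depp1 by 1.88 (0.0443). With 3 libraries on that side and pups sorted by glucose, this compares glucose groups among knockouts.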

How the data were processed

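Liver RNA of 15 pups was read on Agilent single-colour arrays, 1 array per pup. Per the file headers, the deposited intensity values (processed, mean and background signals) came from Agilent Feature Extraction 10.10, with background subtraction and no scaling between arrays. Per the labels' protocols, 200 ng of total RNA was labelled with Cy3. The authors also deposited log2 values in a series matrix, made with limma per the submitters' processing notes (version not given in the sources used here). These values served as an alternative. Their scale offset and centring are unknown.

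Levels were log2 of the processed intensity minus the array's 75th percentile. Of 55681 non-control probes (432 printed more than once were averaged, and 176 to 546 spots per array marked as irregular were set to missing), 41206 were well above background on at least 3 arrays, and the brightest probe stood for each of 27599 genes. Names came from the probe's accession (27235), symbol (3581) or synonym (565), otherwise from the file (24300). A limma 3.58.1 model (R 4.3.3) with 3 group means over all 15 libraries, with 12 residual and 1.83 prior degrees of freedom, gave the differences, with Benjamini-Hochberg adjustment over all genes. On simulated data it called 35.8%, 67.2% and 95.5% of genes changed 1.5-, 2- and 4-fold in this comparison, with 5 false calls. Whether these percentages hold for the livers of the pups was not tested. In the livers Cyp1a2 (8.79-fold), Mirg (8.28-fold), Slc22a7 (8.20-fold) and Ddit4 (5.96-fold) were not called, while A130072N09Rik (4.00-fold) was. Files were read with Python 3.11.15 and pandas 2.3.3, permutations used scipy 1.17.1 over numpy 2.4.6, and matplotlib 3.10.9 drew the figures.

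Groups came from the sample titles. Of the same-numbered replicates of the groups, numbers 1 and 2 correlated best with their own number and the others did not (correlations 0.27, 0.18, −0.18, −0.02 and −0.12). They were not treated as pairs, and a fit with the number as a block is given below. The comparison, its members and the 51 gene lists (34 of functions, 17 of cell type markers) were chosen with earlier results of these data known, and 3 lists were added after the values were seen. Genes were named if called, if among the 12 largest differences per direction that did not overlap, as the leading members of each function list (up to 4), or from a short fixed list, 70 in all. The 12 per direction came from genes with a gene symbol, clone and gene-model names left out, that were well above background on every array of at least 1 of the 2 groups. Further members under adjusted p 0.10, genes called without 1 library, and the lymphocyte and cytokine genes outside the lists were chosen after their values were seen. A few named genes are not reported here. There were 26 alternatives in all, among them other scaling, background correction, filters, slides as a block and each library left out.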

Additional observations from a re-analysis of the deposited data

Results flagged for a closer look

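In all, 3 of the named genes differed between the KO livers titled hypoglycaemic and normoglycaemic by the contrast itself, with limma adjusted p-values under 0.05. A130072N09Rik differed by −2.06 (0.0329), Ppp1r3c, the glycogen scaffold, by −2.48 (0.0443) and Depp1, the FOXO-induced autophagy regulator, by 1.88 (0.0443), all as hypoglycaemic minus normoglycaemic KO.

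In 8 of 140 groups of values tested by Dixon's test, 1 library lay far from the rest of its group; chance alone gives about 1 in 20 groups. Hypoglycaemic KO replicate 5 stood highest in Depp1 (6.52), in Klf6 (3.96), a stress-responsive transcription factor, and in Myc (2.94). The library labelled hypoglycaemic KO replicate 2 stood highest in Nr0b2 (0.77), the bile acid feedback repressor. Hypoglycaemic KO replicate 7 was lowest in Flrt2 (−5.94) and replicate 4 highest in Dio3 (−2.50). In wild-type livers, replicate 2 was lowest in G6pc (6.26), the glucose-releasing phosphatase, and replicate 1 was highest in Slc16a1 (−1.65), a lactate carrier.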

How the results depend on the processing

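The 5 called transcripts kept their sign in 26 of 26 settings, and each still separated the groups in all of them except that 1 did not with the mean of a gene's probes. Their number, 5, became 90 with a trended and robust variance, 2 with no filter on dim probes, 74 with normexp background correction, 3 with only the 12 libraries compared, 50 with the series matrix values, 68 with a stricter filter on dim probes (all arrays of at least 1 group), 0 within slide 1 and within slide 2, 0 without the 3 pancreas-rich libraries (chosen after seeing the data) and 0 to 749 with 1 library left out. Genes on the higher side under adjusted p 0.10 (218) became 779, 5, 542, 1, 512, 625, 0, 0, 1 and 0 to 1501 in the same order, and those on the lower side (316) became 797, 26, 660, 6, 705, 685, 0, 0, 3 and 1 to 1216. Genes that did not overlap (202 higher, 193 lower) became 1862 and 1462 within slide 1, 3115 and 2582 within slide 2, 343 and 337 without the pancreas-rich libraries, and 217 to 969 and 209 to 640 with 1 library left out; fewer libraries make a lack of overlap easier to reach. With the replicate block over same-numbered libraries, 0 genes were called, 495 and 475 lay under adjusted p 0.10 and 414 and 315 did not overlap, and the same libraries without the block gave 0, 19 and 34, and 414 and 315. Libraries 1 and 2 correlated best with their own number, the others did not. Mirg was −2.91 within slide 1 (exact permutation p = 0.133) and −3.31 within slide 2 (p = 0.1), where 2 or 3 wild-type libraries limit the p that can be reached, and −3.46 to −2.85 with 1 library left out. Mirg and the 5 called transcripts reversed in none of the settings. Among named genes only Afp, Alb, Dio3 and Cpt1a, each with a difference near 0, changed sign in some setting. Some list medians changed sign too: gluconeogenesis (0.05) and hepatocyte markers (0.03) within slide 1, B-lineage markers (0.01) within slide 2, erythroid markers (0.01) without wild-type replicate 4, and the thyroid response (down to −0.01) in 4 settings. Several lists whose medians are not printed did so as well. Quantile scaling, the slide as a block and the mean of probes left 4 or 5 genes called. The number of arrays and, for dim genes, signal near background limit the precision.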

Other observations

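Among genes outside the lists, chosen after their values were seen, several of hepatocyte metabolism and secretion lay below wild type in all 7 KO libraries. Nrn1, known as a neurite growth factor, differed by −1.19 (limma adjusted p = 0.0559), Bco2, which cleaves carotenoids, by −0.86 (0.0559), Car8, a carbonic anhydrase-related protein, by −1.24 (0.0904), Srd5a1, a steroid reductase, by −0.97 (0.0972) and Pecr, a peroxisomal reductase, by −0.95 (0.102). Nat8f2, an acetyltransferase-like gene, differed by −1.80 and Sybu, a kinesin adaptor, by −1.37. Fas, the death receptor, differed by −1.03 (0.0936) and Cxcl12, a chemokine made by stromal and endothelial cells, by −0.78 (0.0874). On the higher side, Slc27a4, a fatty acid transporter, differed by 0.73 (0.0874), Plaur, the urokinase receptor, by 0.73 (0.0972) and Slc19a3, a thiamine transporter that was dim throughout, by 0.70 (0.0874).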
